A study of Mus musculus with 32 samples.

Results

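Genes of fibroblast growth factor (FGF) signaling were followed through the developing mouse kidney. They were chosen by name for their place in the pathway, with earlier results of these data known. They were 5 secreted ligands (*Fgf7*, *Fgf8*, *Fgf9*, *Fgf10* and *Fgf20*), 2 receptors (*Fgfr1* and *Fgfr2*) and 3 feedback inhibitors (*Spry1*, *Spry2* and *Dusp6*), 10 of the 55806 gene identifiers counted in the study. All 10 were present in all 4 count tables. The study asked how gain-of-function mutations in the YEATS domain of ENL, a reader of acylated histones encoded by *Mllt1*, alter kidney development. RNA-seq was performed on 32 libraries from embryos that all carried a Cre allele, wild-type (WT) controls included.

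Whole kidneys of E18.5 embryos with the Six2-TGC transgene, a BAC that drives Cre in nephron progenitors, were either Six2-TGCtg/+;Enl+/+ (WT, n = 2), Six2-TGCtg/+;EnlT1/+ (T1, n = 2) or Six2-TGCtg/+;EnlT3/+ (T3, n = 2). Cells of the same Six2-TGC lineage, marked with tdTomato from a Cre reporter and sorted, were taken from WT and T1 embryos of both E14.5 and E18.5, with 3 libraries in each of the 4 groups. The reporter is permanent, so these cells hold nephron progenitors together with the nephrons that they had formed. Embryos with Foxd1GC, a Cre knock-in at *Foxd1* that removes 1 allele of that gene in WT and mutant alike, gave whole E18.5 kidneys (Foxd1GC/+;Enl+/+ and Foxd1GC/+;EnlT1/+, n = 3 each) and sorted stromal lineage cells (n = 4 each). The mutant alleles were heterozygous throughout. Whether each library came from 1 embryo is not given in the sources used here, so p-values measure the spread between libraries.

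FGF ligands bind receptor tyrosine kinases together with heparan sulfate, and the receptors signal through RAS and the MAP kinase ERK. In the kidney, FGF20 and FGF9 act on nephron progenitors and keep them undifferentiated, FGF8 is required in the renal vesicle, the first epithelial structure of the nephron, and FGF10 and FGF7 act on FGFR2 in the branching ureteric bud. SPRY1 and SPRY2 dampen receptor tyrosine kinase signaling, and DUSP6 dephosphorylates ERK. All 3 inhibitors are themselves induced by the pathway.

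The 10 genes lie apart in the genome (mm10). *Fgf20* (chromosome 8, 40279166 to 40308331, minus strand) shares 12.04% of its exon length with *Micu3* on the other strand, and *Spry1* (chromosome 3, 37639947 to 37644598, plus strand) shares 24.4% with Gm42922 on the other strand. Reads were counted without regard to strand, so the values of both genes are uncertain to that extent. *Fgf10* is on chromosome 13 (118669791 to 118792115, plus strand) and shares 2.67%, *Spry2* is on chromosome 14 (105891947 to 105896819, minus strand) and shares none.

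Promoter windows of RefSeq (GRCm38.p6, 250 bases before to 50 bases after an annotated start) held 7 of the 10 genes. Those of *Spry1* and *Spry2* span the gene starts given above. The window of *Fgf10* belongs to a start inside the gene, away from the end given above. The windows of *Fgf10*, *Spry1* and *Spry2* are printed here 5′ to 3′ on the gene's strand, because the genotype, lineage and stage differences described below turn on these genes. Capitals mark GGAAG, a form of the core of ETS factor sites, on either strand, since ETS factors act at the end of the FGF pathway. Other forms of the core are not marked.

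Fgf10, chr13:118714449-118714748: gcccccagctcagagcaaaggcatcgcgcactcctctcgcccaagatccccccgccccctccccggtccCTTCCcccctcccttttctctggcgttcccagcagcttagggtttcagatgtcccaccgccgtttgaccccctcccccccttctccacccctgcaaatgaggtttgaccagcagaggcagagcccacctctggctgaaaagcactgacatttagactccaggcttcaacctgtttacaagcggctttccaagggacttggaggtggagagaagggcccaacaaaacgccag
Spry1, chr3:37639697-37639996: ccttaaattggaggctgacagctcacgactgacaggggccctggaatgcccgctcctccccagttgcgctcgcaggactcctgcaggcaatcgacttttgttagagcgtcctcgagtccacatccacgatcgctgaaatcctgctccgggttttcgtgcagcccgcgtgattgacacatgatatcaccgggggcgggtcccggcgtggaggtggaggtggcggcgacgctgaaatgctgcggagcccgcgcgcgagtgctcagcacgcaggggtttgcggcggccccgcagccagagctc
Spry2, chr14:105896770-105897069: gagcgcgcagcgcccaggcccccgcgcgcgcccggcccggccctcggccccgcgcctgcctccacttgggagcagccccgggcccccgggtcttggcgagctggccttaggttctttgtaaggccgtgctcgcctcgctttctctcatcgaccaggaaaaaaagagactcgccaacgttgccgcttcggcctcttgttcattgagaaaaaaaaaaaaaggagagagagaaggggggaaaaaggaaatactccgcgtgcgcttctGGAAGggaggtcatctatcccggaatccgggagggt

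GGAAG was present in 5 of the 7 windows, with 1 match in *Fgf10*, *Fgf7* and *Spry2*, 2 in *Fgfr2* and *Dusp6*, and none in *Spry1* or *Fgf9*. Windows with or without it can hold other forms, as those of *Spry1* (ggaat) and *Spry2* (ggaaa and ggaat) do. GGAAG was present in 71.4% of the 32851 promoter windows of the same length, so its presence in the members is a description of their sequence only. The 3 printed windows were rich in G and C, at 60.7% in *Fgf10*, 64.3% in *Spry1* and 62.7% in *Spry2*.

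The tables were scaled separately, so levels set side by side across whole kidneys, sorted Six2 cells and sorted Foxd1 cells are not on 1 common scale. Library totals were 106005614 to 157266455 counts in whole Six2 kidneys, 115625561 to 137888792 in sorted Six2 cells of E14.5, 76510702 to 92026288 at E18.5, and 67137194 to 79343015 in whole Foxd1 kidneys. Sorted Foxd1 cells had only 2557443 to 3508381 counts, at which 3 counts correspond to 0.848 to 1.202 CPM (counts divided by the scaled library total) against at most 0.0443 CPM elsewhere. *Mllt1* was present in every library, at 76.5 to 105 CPM in whole Six2 kidneys and 27.4 to 44.7 CPM in sorted Foxd1 cells. The mutations change a few residues of a gene that stays expressed, so gene counts do not check the genotype labels. *Xist*, the RNA of the inactive X chromosome, was at 0.111 and 0.160 CPM in the T1 libraries of whole Six2 kidneys, 957 and 1327 CPM in the T3 libraries, and 0.107 and 551 CPM in the 2 WT libraries, so sex and mutant genotype cannot be told apart between T1 and T3 there.

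All members called between mutant and WT were ligands, and *Fgf20* and *Fgf10* were called most often. A member was called when edgeR's quasi-likelihood test, adjusted by the Benjamini-Hochberg method over all genes tested, gave an adjusted p under 0.05 with a change over 1.5-fold. In whole Six2 kidneys of T1, 1 of 10 members fell (*Fgf20*) and 0 rose, while 4.88% of all 23931 genes tested fell and 2.88% rose. In T3, measured against the same 2 WT libraries, 2 members fell (*Fgf20* and *Fgf10*) and 1 rose (*Fgf8*), where 5.28% of all genes fell and 4.34% rose.

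In sorted Six2 cells of E14.5, 1 of 10 members fell (*Fgf20*) and 0 rose, against 2.28% and 4.11% of the 22387 genes tested. At E18.5, *Fgf20* and *Fgf10* fell and 0 rose, against 5.54% and 6.14% of 22685 genes. In whole Foxd1 kidneys the only called member moved the other way: *Fgf10* rose and 0 fell, against 2.65% and 7.53% of 20145 genes. In sorted Foxd1 cells 7 members had enough counts to be tested and 0 were called, with 1 member higher and 1 lower at an unadjusted p under 0.05 (DESeq2 also called 0), where 3.63% of 12717 genes rose and 2.18% fell. With no fold threshold, 3 and 4 members had an adjusted p under 0.05 in whole Six2 kidneys of T1 and T3, as did 14.2% and 17.5% of all genes, 4 in sorted Six2 cells of each stage (12.9% and 20.3% of all genes), 1 in sorted Foxd1 cells (10.7%) and 4 in whole Foxd1 kidneys (33.4%). The members' median log2 fold change was -0.19 and -0.22 in whole Six2 kidneys of T1 and T3, -0.17 and 0.00 in sorted Six2 cells at the 2 stages, -0.03 in sorted Foxd1 cells and 0.30 in whole Foxd1 kidneys, while the median over all genes tested lay between -0.01 and 0.02 in each.

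**Figure D1:**
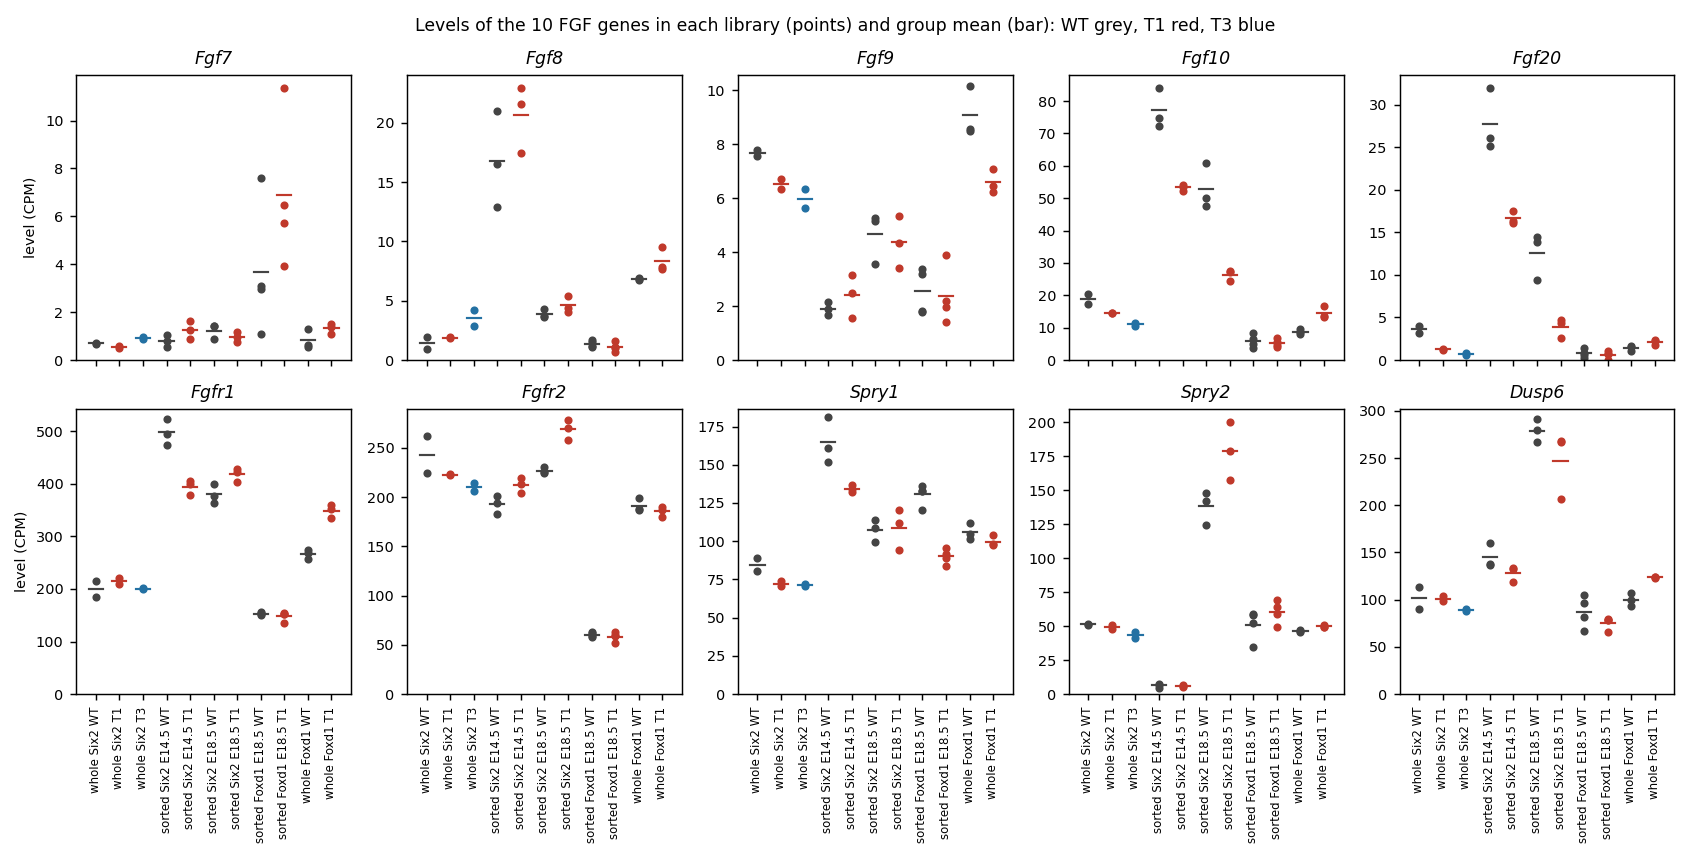
Level of each of the 10 genes in CPM (vertical axis, from 0) in each of the 11 groups (horizontal axis); points are libraries, horizontal bars are group means, WT grey, T1 red and T3 blue. *Fgf20* and *Fgf10* were highest in WT sorted Six2 cells of E14.5 and lower in T1 at both stages, and *Spry2* stood at 4.67 to 7.49 CPM in sorted Six2 cells of E14.5 and 124 to 200.2 CPM at E18.5.

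*Fgf20*, the ligand made by nephron progenitors themselves, fell in all 4 comparisons of the Six2 lineage. In sorted Six2 cells of E14.5 the WT libraries had 25.2, 32.0 and 26.0 CPM and the T1 libraries 16.3, 16.1 and 17.6 CPM. The T1 libraries lay close together below every WT library, and the log2 fold change was -0.74 ± 0.10 (SE, n = 3 per group, edgeR adjusted p = 0.00271).

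At E18.5 *Fgf20* was lower in WT, at 14.46, 9.38 and 13.9 CPM, and T1 libraries had 2.57, 4.39 and 4.76 CPM. Again the groups did not overlap, and the log2 fold change was -1.65 ± 0.22 (edgeR adjusted p = 0.000113), about 3.13-fold. Whole Six2 kidneys had 4.01 and 3.18 CPM in WT, 1.31 and 1.18 CPM in T1, and 0.577 and 0.770 CPM in T3. Both mutants lay below WT, with log2 fold changes of -1.54 ± 0.21 in T1 (adjusted p = 0.00244) and -2.42 ± 0.22 in T3 (adjusted p = 0.000364, edgeR).

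In whole Foxd1 kidneys, where the mutation is in the stroma, *Fgf20* had 1.64, 1.10 and 1.59 CPM in WT and 2.32, 1.76 and 2.29 CPM in T1. The T1 libraries were all above WT, by 0.55 ± 0.21 on the log2 scale, but the edgeR adjusted p of 0.0580 missed the threshold. Without T1 replicate 2 it was 0.68, with an adjusted p of 0.0354. Sorted Foxd1 cells held 0 to 4 counts of *Fgf20* per library, about the level of 3 counts, and the gene was not tested there.

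*Fgf10* moved with *Fgf20*. In sorted Six2 cells of E14.5 it had 74.9, 84.2 and 72.2 CPM in WT and 53.5, 54.2 and 52.3 CPM in T1. The groups were apart and the adjusted p was 0.00140, but the log2 fold change of -0.53 ± 0.06 fell short of 1.5-fold (0.58 on this scale). At E18.5 the WT libraries had 47.7, 49.9 and 60.9 CPM and the T1 libraries 24.3, 27.6 and 27.2 CPM. Here the difference was -0.96 ± 0.10 (edgeR adjusted p = 1.44e-05), close to 1.95-fold, with no overlap.

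Whole Six2 kidneys had 17.2 and 20.3 CPM of *Fgf10* in WT, 14.4 and 14.7 CPM in T1, and 10.5 and 11.5 CPM in T3. Every mutant library was below both WT libraries. The log2 fold change was -0.37 ± 0.10 in T1 (adjusted p = 0.0444, short of 1.5-fold) and -0.77 ± 0.10 in T3 (edgeR adjusted p = 0.00181). Libraries of whole Foxd1 kidneys had the opposite order, since WT libraries had 9.55, 7.98 and 8.62 CPM of *Fgf10* and T1 libraries 16.8, 13.7 and 13.2 CPM. The increase of 0.74 ± 0.11 (adjusted p = 0.000210) was the only called rise of a member in these kidneys. In the sorted stroma the groups overlapped, since WT libraries had 3.60 to 8.20 CPM and T1 libraries 4.04 to 6.89 CPM.

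**Figure D2:**
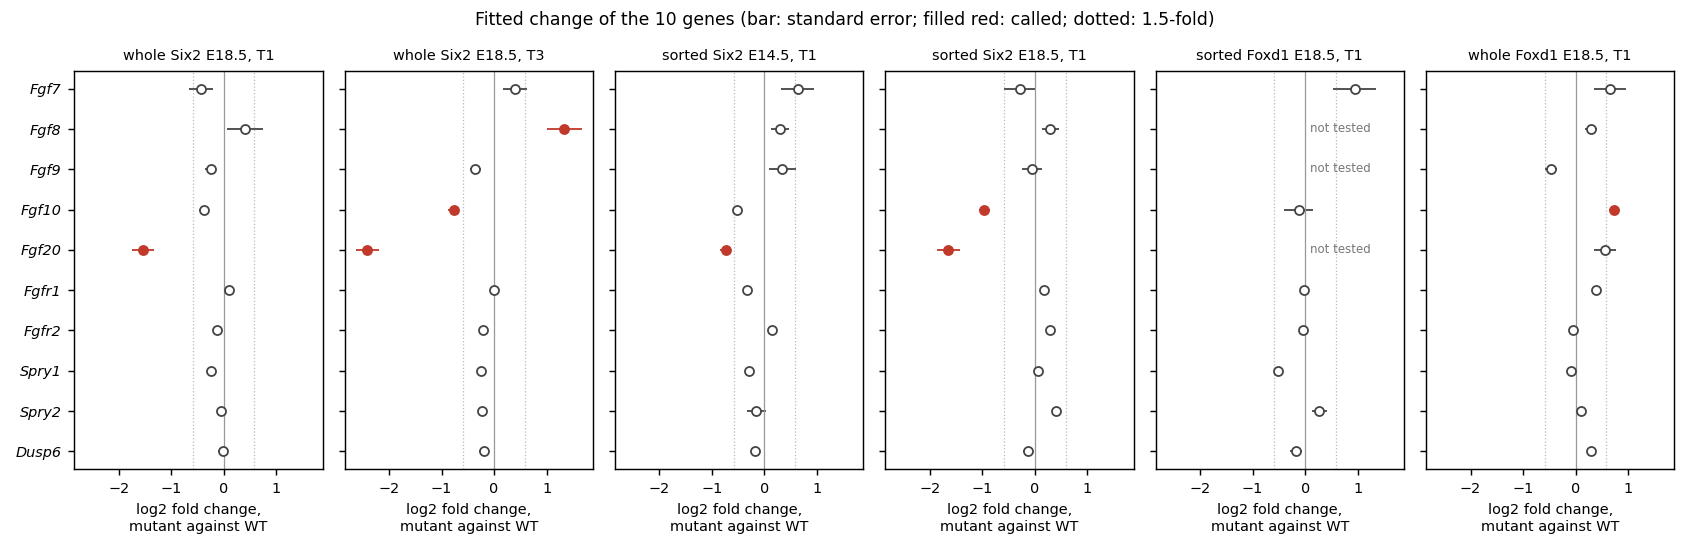
Fitted log2 fold change, mutant against WT, of the 10 genes (rows) in the 6 genotype comparisons (panels); bars are standard errors, filled red points passed the adjusted p of 0.05 and 1.5-fold (dotted lines). *Fgf20* lies left of the line in all 4 Six2 panels, from -0.74 to -2.42, and *Fgf10* lies left of it in 2 of them and right of it, at 0.74, in whole Foxd1 kidneys.

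Because these are bulk RNAs, fewer cells of a type and less RNA per cell cannot be told apart. The markers of nephron progenitors moved in the same direction as both ligands. Of 6 progenitor markers (*Six2*, *Cited1*, *Crym*, *Osr1*, *Eya1*, *Meox1*), 5 fell in T1 in each set of sorted Six2 cells and 5 fell in each mutant in whole Six2 kidneys, while 4 rose in whole Foxd1 kidneys, and none was at 0 in any library. Their summed level was 1651 to 1932 CPM in WT and 851 to 1052 CPM in T1 at E14.5, and 450 to 585 CPM against 186 to 242 CPM at E18.5. In whole kidneys it was 142 and 168 CPM in Six2 WT, 86.2 to 88.9 CPM in T1 and 71.9 to 88.2 CPM in T3, and 279 to 295 CPM in Foxd1 WT against 424 to 525 CPM in Foxd1 T1.

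Per 1000 CPM of these 6 markers, a scale chosen after the data were seen, *Fgf20* was at 15.1 to 16.5 CPM in WT and 15.3 to 20.6 CPM in T1 at E14.5, so the groups overlapped. At E18.5 it was 20.8 to 29.3 CPM in WT and 13.9 to 19.8 CPM in T1, still apart, with a ratio of means of 0.723. In whole Six2 kidneys it was 19.0 and 28.3 CPM in WT, 13.7 and 14.7 CPM in T1, and 8.03 and 8.73 CPM in T3, also apart, whereas whole Foxd1 kidneys overlapped (3.94 to 5.61 CPM in WT, 4.15 to 5.41 CPM in T1). No test was made on this scale. In the study's spatial data of E18.5, nephron progenitors were a smaller share of T1 kidneys with Six2-TGC and a larger share of those with Foxd1GC. *Six2*, *Cited1* and *Osr1* were also lower within the nephron progenitors of the T1 kidneys with Six2-TGC. The marker sum is thus not a count of progenitors.

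*Fgf10* did not remain lower per progenitor marker in the Six2 lineage. It was at 43.6 to 44.8 CPM per 1000 CPM of progenitor markers in WT and 51.5 to 61.5 CPM in T1 at E14.5, and 96.6 to 111 CPM against 113 to 131 CPM at E18.5, higher in T1 at both stages. In whole Foxd1 kidneys, WT libraries were at 28.7 to 32.4 CPM and T1 libraries at 31.2 to 32.4 CPM, which overlapped. The fall of *Fgf10* was thus smaller than that of the summed progenitor markers, and that of *Fgf20* was larger at E18.5 and in whole Six2 kidneys. *Fgf8* was higher in every mutant library of the Six2 lineage on this scale, with ratios of means between 2.22 and 4.95 in the 4 comparisons. The progenitor sums themselves had ratios of 0.424 to 0.566 there. In CPM, *Fgf8* overlapped between T1 and WT in each Six2 comparison and was apart only in T3.

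The picture differed per 1000 CPM of 6 markers of committing progenitors and renal vesicles, also set after the data were seen. On this scale *Fgf10* was lower in every mutant library of the Six2 lineage. At E14.5 it was at 64.0 to 87.4 CPM in WT and 49.9 to 52.6 CPM in T1, and at E18.5 at 45.8 to 63.5 CPM against 16.2 to 19.9 CPM. Its ratios of means in the 4 Six2 comparisons were 0.347 to 0.695. *Fgf20* was lower in all 4 as well, with a ratio of 0.603 at E14.5. *Fgf8* overlapped between T1 and WT there, with ratios of 1.26 at E14.5, 0.827 at E18.5 and 1.10 in whole Six2 kidneys. Only T3 was apart from WT, at a ratio of 2.34. Whether *Fgf10* was lower, or *Fgf8* higher in T1, thus depended in the Six2 lineage on which markers each was set against. In whole Foxd1 kidneys *Fgf10* per vesicle marker was higher in T1, at 23.0 to 29.6 CPM against 17.4 to 19.5 CPM in WT, with no overlap.

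**Figure D3:**
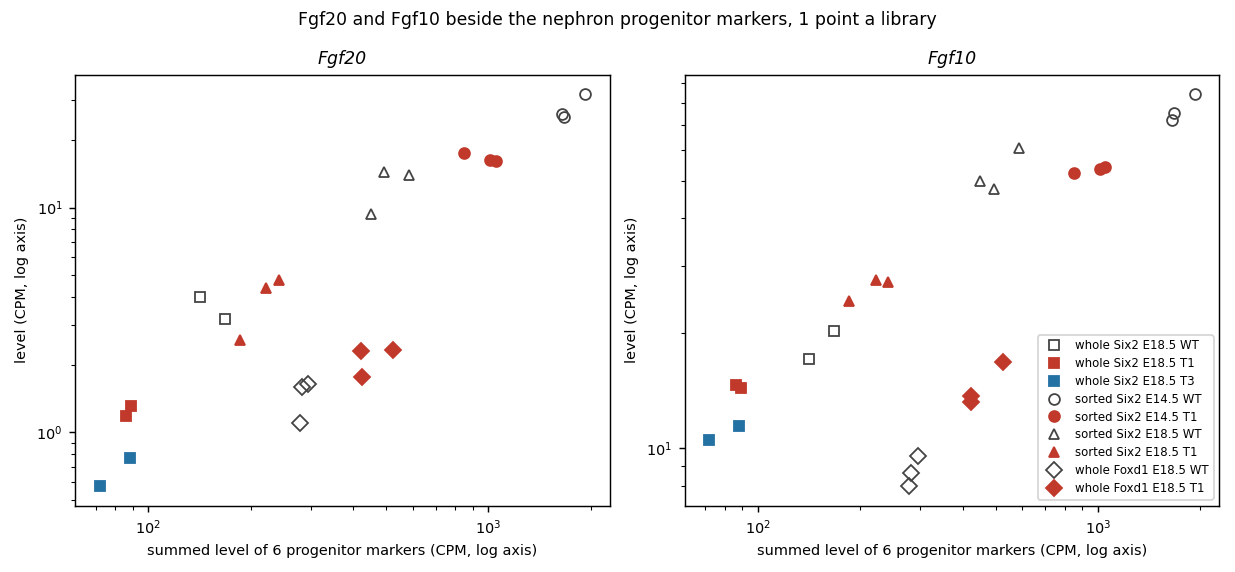
Level of *Fgf20* (left) and *Fgf10* (right) against the summed level of the 6 nephron progenitor markers, both in CPM on log axes, 1 point for each library of whole kidneys and sorted Six2 cells (open, WT; filled red, T1; filled blue, T3). T1 points of the Six2 lineage lie lower on both axes than their WT points, and T1 points of whole Foxd1 kidneys, at 424 to 525 CPM of markers, lie above theirs at 279 to 295 CPM.

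Other marker lists also moved in sorted Six2 cells. Stromal markers summed to 432 to 568 CPM in WT and 892 to 1815 CPM in T1 at E14.5, where 8 of 9 rose and 1 fell, and to 292 to 534 CPM against 789.6 to 909 CPM at E18.5, where 6 rose and 1 fell. The marker that fell was *Foxd1*. It was at 135 to 158 CPM in WT and 59.9 to 95.4 CPM in T1 at E14.5. At E18.5 it was at 33.0 to 40.5 CPM and 9.15 to 10.4 CPM. At E18.5 the markers of formed nephrons moved further. Podocyte markers summed to 2910 to 3419 CPM in WT and 204 to 260.3 CPM in T1, and proximal tubule markers to 1386 to 1886 CPM and 440 to 485 CPM, and all 6 markers of each list fell. Markers of committing progenitors and renal vesicles were higher in T1, at 1388 to 1497 CPM against 958 to 1042 CPM, where 4 of 6 rose and 1 fell. Macrophage markers at E18.5 summed to 17.6 to 23.4 CPM in WT and 50.4 to 63.5 CPM in T1, where 5 of 6 rose. Their part in the ligand differences was not tested. In the sorted Foxd1 cells stromal markers summed to 6078 to 8661 CPM. WT libraries there also held podocyte markers at 492 to 867 CPM, endothelial markers at 146 to 288 CPM and progenitor markers at 108 to 163 CPM. Macrophage markers there summed to 64.1 to 166.5 CPM in WT and 153 to 219 CPM in T1, which overlapped, and 3 of 6 rose. The part of other cell types in the levels and differences of these sorted cells was not tested.

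*Fgf8*, the renal vesicle ligand, was called only in whole Six2 kidneys of T3. Libraries had 0.906 and 1.91 CPM in WT, 1.84 and 1.91 CPM in T1, and 2.87 and 4.24 CPM in T3. T3 lay above WT by 1.33 ± 0.33 on the log2 scale (edgeR adjusted p = 0.0315), but the 2 WT libraries differed from each other by about as much, and with only the 2 groups compared in the fit the adjusted p was 0.0628. Leaving out either T1 library gave 0.0548 and 0.0628, and leaving out either T3 library gave 0.0508 and 0.175.

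In the sorted Six2 cells *Fgf8* overlapped between genotypes at E14.5 (21.0, 12.9 and 16.5 CPM in WT, 17.5, 21.6 and 23.0 CPM in T1) and at E18.5 (3.69, 4.32 and 3.59 CPM in WT, 5.42, 4.43 and 4.01 CPM in T1). The log2 fold changes were 0.30 at both stages, with SE of 0.17 and 0.16 and adjusted p of 0.332 and 0.249 (edgeR). *Fgf8* in whole Foxd1 kidneys was at 6.74 to 6.91 CPM in WT and 7.70 to 9.57 CPM in T1, a difference of 0.29 ± 0.11 (adjusted p = 0.0594). Markers of committing progenitors and renal vesicles summed to 458 to 489 CPM in WT and 567 to 583 CPM in T1 of those kidneys. In whole Six2 kidneys the same sum was 442 and 564 CPM in WT, 623 and 636 CPM in T1, and 545 and 582 CPM in T3.

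*Fgf9*, made by the ureteric bud and by progenitors, was lower in mutant whole kidneys without reaching 1.5-fold. Whole Foxd1 kidneys had 8.55, 8.51 and 10.2 CPM in WT and 7.09, 6.47 and 6.22 CPM in T1. All T1 libraries were lower, with a log2 fold change of -0.46 ± 0.11 (edgeR adjusted p = 0.00563). Whole Six2 kidneys had 7.57 and 7.79 CPM in WT, 6.34 and 6.71 CPM in T1 and 6.34 and 5.62 CPM in T3, with adjusted p of 0.192 and 0.0550. Of 7 ureteric tree markers, 2 fell in Six2 T1, 5 fell in T3, and 2 fell and 1 rose in Foxd1 T1. They summed to 700.4 to 832 CPM in Foxd1 WT against 465 to 511 CPM in T1, and to 527 and 646 CPM in Six2 WT against 364 to 384 CPM in T1 and 286 to 365 CPM in T3. In sorted Six2 cells *Fgf9* did not pass the test in either direction (log2 fold change 0.34 ± 0.26 at E14.5 and -0.06 ± 0.20 at E18.5).

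*Fgf7* was low in whole kidneys, at 0.486 to 1.49 CPM, and passed the threshold in no genotype comparison. It was highest in the sorted stroma, at 3.11, 2.98, 7.61 and 1.08 CPM in WT and 11.4, 3.94, 5.71 and 6.46 CPM in T1. These values rest on 3 to 31 counts per library, and the difference of 0.95 ± 0.41 had an edgeR adjusted p of 0.165. Without WT replicate 3, the highest WT library, it was 1.48 (adjusted p = 0.0255), and with no filter on low counts 0.93 (adjusted p = 0.0460). Whole Foxd1 kidneys had 0.644, 1.32 and 0.560 CPM in WT and 1.39, 1.11 and 1.49 CPM in T1 (difference 0.65 ± 0.31, adjusted p = 0.121). Without WT replicate 2 that difference was 1.13 (adjusted p = 0.00930).

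The receptors changed by less than 1.5-fold in every genotype comparison. *Fgfr1*, the receptor of progenitors and stroma, had 524, 496 and 474 CPM in WT and 405, 399 and 379.5 CPM in T1 in sorted Six2 cells of E14.5. The T1 libraries were all lower, with a log2 fold change of -0.34 ± 0.05 (edgeR adjusted p = 0.00298). At E18.5 WT had 400.4, 364 and 377 CPM and T1 404, 422 and 429 CPM, and the difference of 0.18 ± 0.06, with T1 above WT, had an adjusted p of 0.0645. The difference between the 2 stages was itself tested, and for *Fgfr1* it was 0.52 ± 0.08 (adjusted p = 0.000706).

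*Fgfr1* was the only member called for this stage by genotype interaction (1 up, 0 down, with no fold threshold), where 3.94% of the 25222 genes tested were up and 4.22% down. The values for *Fgf20* (-0.90 ± 0.28, adjusted p = 0.0693) and *Fgf10* (-0.42 ± 0.13, adjusted p = 0.0675) missed the threshold, so the larger fall of both at E18.5 was not shown to differ from that at E14.5 by edgeR. DESeq2 gave -0.93 and -0.46 with adjusted p of 0.00947 and 0.0135. In whole Foxd1 kidneys *Fgfr1* was at 256 to 274 CPM in WT and 334.5 to 359.7 CPM in T1, higher by 0.39 ± 0.05 (edgeR adjusted p = 0.000115), while whole Six2 kidneys overlapped (185.4 to 216 CPM in WT, 199.8 to 221 CPM in the mutants).

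*Fgfr2*, the receptor of the ureteric bud that also acts in progenitors, had 225, 231 and 225 CPM in WT and 258, 270.2 and 279 CPM in T1 in sorted Six2 cells of E18.5. T1 was higher by 0.29 ± 0.06 (edgeR adjusted p = 0.00360), less than 1.5-fold. At E14.5 the difference was 0.14 ± 0.05 (adjusted p = 0.104). In the sorted stroma *Fgfr2* was at 57.7 to 63.1 CPM in WT and 52.2 to 62.7 CPM in T1, and in whole kidneys its log2 fold change was between -0.21 and -0.05.

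No feedback inhibitor reached 1.5-fold in a genotype comparison, and the largest difference was in the stroma. *Spry1* had 133, 133, 120.2 and 136 CPM in the sorted Foxd1 cells of WT and 95.8, 91.6, 88.9 and 83.7 CPM in T1. All T1 libraries were below all WT libraries, and the log2 fold change was -0.52 ± 0.08 (edgeR adjusted p = 0.000129), about 1.43-fold and so short of the threshold. In sorted Six2 cells of the same age *Spry1* overlapped (99.4 to 114 CPM in WT, 94.0 to 120.1 CPM in T1), and the test of the difference between lineages gave -0.60 ± 0.12 (adjusted p = 0.000963). *Spry1* and *Fgfr2* (-0.34 ± 0.10, adjusted p = 0.0250) were the 2 members called for this lineage by genotype interaction, both down and 0 up, where 7.63% of 14869 genes were down and 8.25% up. The call of *Fgfr2* was lost without T1 replicate 3 of the sorted Six2 cells (-0.32, adjusted p = 0.0706) and with no filter on low counts (-0.32, adjusted p = 0.134). The immediate early gene *Fos* was also lower in T1 than in WT stroma, at 769 to 1024 CPM against 1311 to 1679 CPM, and *Egr1* at 1306 to 1641 CPM against 2114 to 2380 CPM. Of 8 immediate early and stress genes, 2 were called down in T1 stroma and 0 up. *Atf3* overlapped there, at 88.5 to 114 CPM in T1 and 36.6 to 107 CPM in WT. *Egr1* was also lower in T1 sorted Six2 cells of E18.5, at 635 to 785 CPM against 1052 to 1481 CPM. The part of these genes in the *Spry1* difference was not tested.

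At E14.5 *Spry1* was lower in T1 sorted Six2 cells (181, 152 and 161 CPM in WT, 134, 137 and 132 CPM in T1), with a log2 fold change of -0.29 ± 0.06 (edgeR adjusted p = 0.0191). Whole Six2 kidneys had 80.3 and 89.1 CPM in WT against 70.6 to 73.9 CPM in the 4 mutant libraries, with log2 fold changes of -0.24 in T1 and -0.25 in T3 and adjusted p of 0.0412 and 0.0315. None of these reached 1.5-fold. *Spry2* had 148, 142 and 124 CPM in WT and 179, 157 and 200.2 CPM in T1 in sorted Six2 cells of E18.5, higher by 0.41 ± 0.09 (adjusted p = 0.00367). In the other genotype comparisons its difference lay between -0.23 and 0.27, none with an adjusted p under 0.05.

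*Dusp6* was higher in T1 whole Foxd1 kidneys, at 123 to 124.5 CPM against 92.8 to 107.5 CPM in WT. The difference was 0.30 ± 0.06 (edgeR adjusted p = 0.00132), less than 1.5-fold. Elsewhere its genotype difference was between -0.19 and -0.02. With no fold threshold, *Fgf10*, *Fgfr1* and *Dusp6* rose and *Fgf9* fell in whole Foxd1 kidneys, where 33.4% of all genes passed in either direction. The feedback genes *Spry1* and *Spry2* did not pass there (edgeR adjusted p of 0.221 and 0.144).

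The widest difference of a feedback gene was between stages. In WT sorted Six2 cells, E18.5 was compared with E14.5 at an adjusted p under 0.01 and over 2-fold: 2 of 10 members rose (*Spry2* and *Fgf9*) and 2 fell (*Fgf8* and *Fgf20*), while 24.8% of all 25222 genes rose and 20.6% fell, so the members' share was close to that of all genes. With no fold threshold 9 members were called in either direction, where 64% of all genes were. *Spry2* had 6.96, 7.49 and 4.67 CPM at E14.5 and 148, 142 and 124 CPM at E18.5. The rise of 4.42 ± 0.16 on the log2 scale (edgeR adjusted p = 7.49e-12) was about 21.4-fold. T1 cells had a like step, from 5.01 to 6.34 CPM up to 157 to 200.2 CPM.

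*Dusp6* was at 137 to 159.9 CPM at E14.5 and 267 to 291 CPM at E18.5, higher by 0.93 ± 0.09 (adjusted p = 4.88e-07), just short of 2-fold and past it under 4 other settings. *Spry1* went the other way, at 152 to 181 CPM at E14.5 and 99.4 to 114 CPM at E18.5 (-0.64 ± 0.08, adjusted p = 7.83e-06, edgeR). The 3 inhibitors therefore had no common direction between stages. *Fgf8* fell from 21.0, 12.9 and 16.5 CPM to 3.69, 4.32 and 3.59 CPM (-2.13 ± 0.18, adjusted p = 6.39e-08), and *Fgf20* had a log2 fold change of -1.16 ± 0.20 (adjusted p = 0.000106). Without E18.5 WT replicate 2 that of *Fgf20* was -0.95, under 2-fold. *Fgf9* rose from 1.66 to 2.14 CPM up to 3.56 to 5.27 CPM (1.29 ± 0.26, adjusted p = 0.000414). The changes of *Fgf10* (-0.56 ± 0.09), *Fgfr1* (-0.41 ± 0.05) and *Fgfr2* (0.22 ± 0.05) were under 2-fold, and *Fgf7* (0.60 ± 0.33) had an adjusted p of 0.114.

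**Figure D4:**
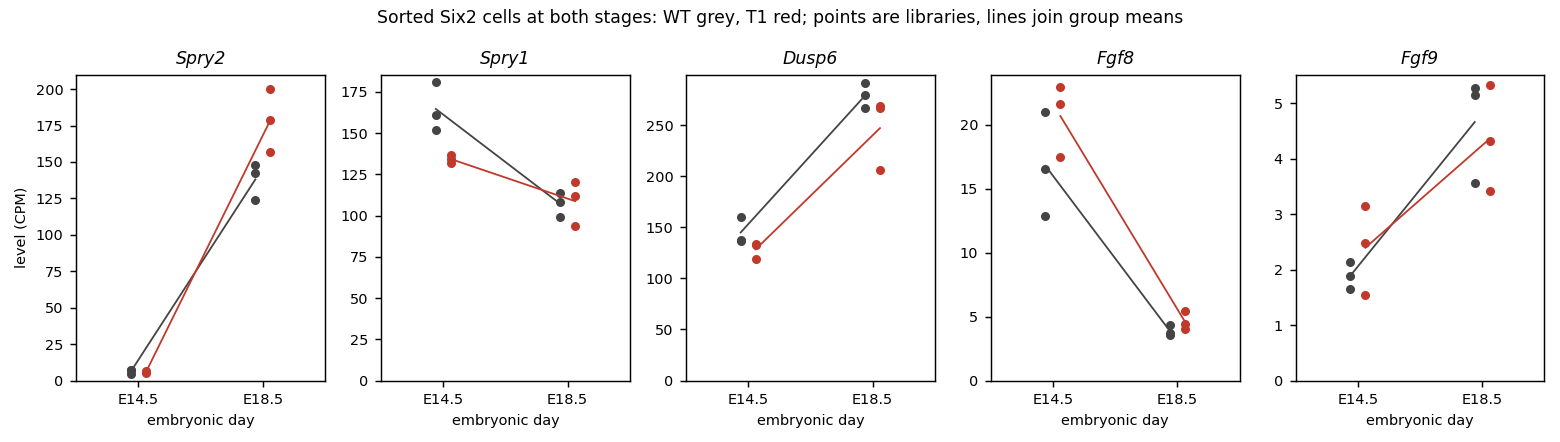
Levels in CPM (vertical axes, from 0) of the 3 feedback inhibitors and of *Fgf8* and *Fgf9* in sorted Six2 cells at E14.5 and E18.5, WT grey and T1 red; points are libraries and lines join group means. *Spry2* rises from at most 7.49 CPM to at least 124 CPM in both genotypes, while *Spry1* and *Fgf8* are lower at E18.5.

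The stages also differed in how cells were released: E14.5 kidneys were treated briefly with trypsin and E18.5 kidneys for longer with collagenase, so stage and dissociation cannot be told apart. Of 8 immediate early and stress genes, 4 passed the same test as higher at E18.5 and 1 as lower. *Atf3*, the one with the widest step, was at 1.25 to 3.70 CPM in WT at E14.5 and 231 to 316 CPM at E18.5 in sorted cells, against 3.55 and 3.72 CPM in undissociated WT Six2 kidneys of E18.5. *Egr1* had no such step, at 993 to 1825 CPM and 1052 to 1481 CPM, and *Ier2* was lower at E18.5, at 428 to 598 CPM against 177 to 246.5 CPM. Sorted cells of E14.5 were already above whole kidneys, since whole WT Six2 kidneys had 24.7 and 25.1 CPM of *Egr1*, and 1.71 and 1.93 CPM of *Fos* where the sorted cells of E14.5 had 186 to 345 CPM. *Spry2* was at 51.1 and 51.3 CPM in those whole kidneys and 34.8 to 58.9 CPM in WT sorted stroma, both above its E14.5 level. Over 12 sorted Six2 libraries the genes most like *Spry2* were *Ap2b1*, *Diexf* and *Ankrd52* (Pearson r of 0.999, 0.998 and 0.998). *Ankrd52* went from 6.05 to 7.02 CPM in WT at E14.5 up to 126 to 133 CPM at E18.5, and was at 109 to 114 CPM in WT whole Six2 kidneys. The part of dissociation in the step of *Spry2* was not tested.

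The likeness of the other members over these 12 libraries is given as a description, since the libraries share stage, genotype and sort. *Fgf20* was most like *Sncaip*, 9130410C08Rik and *Crtac1* (r of 0.985, 0.983 and 0.981), and *Fgf10* most like *Cped1*, *Fam213a* and Gm13261 (0.988, 0.982 and 0.979). *Fgf8* was most like *Tma7*, Gm11401 and *Snapc5* (0.989, 0.989 and 0.988), and *Fgf9* like *Runx3*, Gm43305 and *Aspdh* (0.958, 0.955 and 0.954). *Fgf7*, the least abundant, reached only 0.879 with Dgkeos, 0.874 with *Platr1* and 0.863 with *Adra1b*. *Fgfr1* was like *Cnnm3*, *Nras* and Gm3411 (0.966, 0.928 and 0.928) and *Fgfr2* like *Tmem178b*, Gm53 and *Cpm* (0.978, 0.977 and 0.976). *Spry1* was like *Lsr*, *Cad* and 2700046G09Rik (0.985, 0.969 and 0.964), and *Dusp6* like *Inmt*, *Sppl2a* and *Rap2c* (0.988, 0.986 and 0.986).

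Between lineages, WT sorted Foxd1 cells had less of both receptors, of *Fgf10*, *Spry2* and *Dusp6* than WT sorted Six2 cells of E18.5. At an adjusted p under 0.01 and over 2-fold, 5 of the 7 members with enough counts to be tested within the stroma alone were lower and 1 was higher, while 21.6% of the 12688 genes tested in both settings were lower and 30% higher. *Fgf8* and *Fgf20* also came out lower, which made 7 of 10 members where 28.2% of all 14869 genes were lower and 27.2% higher. These 2 passed the filter on low counts only through the Six2 cells, which favored a lower stromal level, so they are not counted as results. *Fgf9*, also too low to test within the stroma alone, was not called (-0.66 ± 0.32, edgeR adjusted p = 0.0579). With no fold threshold 9 of 10 members were called in either direction, where 80.4% of all genes were. *Fgfr1* had 149.8 to 155 CPM in stroma against 364 to 400.4 CPM (-1.10 ± 0.06), and *Fgfr2* 57.7 to 63.1 CPM against 225 to 231 CPM (-1.69 ± 0.07). *Fgf10* had 3.60 to 8.20 CPM against 47.7 to 60.9 CPM (-2.95 ± 0.17). The log2 differences of *Spry2* (-1.23 ± 0.13) and *Dusp6* (-1.47 ± 0.12) had the same direction, with edgeR adjusted p of at most 1.80e-08 for these 5 genes.

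*Fgf8* and *Fgf20* had 3 to 6 and 1 to 4 counts in these stromal libraries, so no fold is given. *Fgf7* was the one member higher in stroma (1.75 ± 0.44, edgeR adjusted p = 0.00102), but the groups overlapped, at 1.08 to 7.61 CPM against 0.862 to 1.42 CPM, and without WT replicate 3 of the stroma the adjusted p was 0.0218. *Spry1* was higher by 0.50 ± 0.08, under 2-fold. The lineages were sequenced separately with different read lengths and at different depth, which cannot be told apart from lineage. Exon length also moved with this comparison: the median log2 difference was 0.90 over genes with exons of under 2432 bases and -0.76 over those above 6633 bases, and *Fgfr1* and *Fgfr2*, at 9875 and 10328 bases, are among the latter.

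Compared per exon length, the order of the members differed between populations. In WT sorted Six2 cells of E14.5 *Spry1* was highest at 56.7 ± 5.17 CPM per kb (SD, n = 3), followed by *Fgfr1* at 50.4 ± 2.53 and *Dusp6* at 46.3 ± 4.13, and libraries of neighbors in this order overlapped. *Fgfr2* was at 18.6 ± 0.927, then *Fgf10* at 16.8 ± 1.36, *Fgf20* at 16.5 ± 2.20 and *Fgf8* at 12.4 ± 3.00, each with libraries overlapping those of its neighbor, and *Spry2* was apart at 3.05 ± 0.719 CPM per kb. *Fgf9* and *Fgf7* were lowest, at 0.407 ± 0.0513 and 0.248 ± 0.0759 CPM per kb.

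At E18.5 *Dusp6* (89.1 ± 3.92) and *Spry2* (66.1 ± 5.95) led, apart from *Fgfr1* (38.5 ± 1.87) and *Spry1* (36.9 ± 2.52 CPM per kb, SD, n = 3), whose libraries overlapped. Among the member ligands only, *Fgf10* was highest in these cells, at 11.5 ± 1.53 CPM per kb, followed by *Fgf20* at 7.49 ± 1.66 and *Fgf8* at 2.87 ± 0.294. In the WT stroma *Spry1* led at 44.9 ± 2.45 CPM per kb (n = 4), and the ligands were low, with *Fgf10* at 1.26 ± 0.425 and *Fgf7* at 1.14 ± 0.853 CPM per kb. These 2 overlapped, at 0.783 to 1.78 and 0.333 to 2.34 CPM per kb, so they have no order.

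The other genes of the FGF pathway, 65 in all, were counted by the same rule. In whole Six2 kidneys 59 were tested, with 5 up and 3 down in T1, where 2.88% of all genes were up and 4.88% down, and 4 up and 3 down in T3 (4.34% and 5.28% of all genes). Sorted Six2 cells had 6 up and 2 down of 59 at E14.5 (4.11% and 2.28% of all genes) and 4 up and 4 down of 61 at E18.5 (6.14% and 5.54%). Sorted Foxd1 cells had 6 up and 3 down of 47 (3.63% and 2.18% of all genes), and whole Foxd1 kidneys 3 up and 3 down of 59 (2.65% and 7.53%). The median log2 fold change of these genes lay between -0.05 and 0.12. Of the 19 genes of the docking and RAS-MAPK core (18 tested in sorted Foxd1 cells), 0 were called in the 6 genotype comparisons, in which 5.81% to 11.7% of all genes were called.

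The co-receptors of the endocrine FGFs had the largest called changes in whole Six2 kidneys. *Kl*, which encodes alpha-Klotho of the renal tubule, fell in whole Six2 kidneys from 288 to 317 CPM in WT down to 37.1 to 44.5 CPM in T1 (log2 fold change -2.90 ± 0.10, edgeR adjusted p = 1.93e-05) and 39.8 CPM in both T3 libraries (-2.93). It also fell in sorted Six2 cells of E18.5 (55.7 to 57.0 CPM in WT, 7.83 to 10.7 CPM in T1), in sorted Foxd1 cells (-1.99 ± 0.41) and in whole Foxd1 kidneys, from 342 to 376 CPM down to 63.3 to 102 CPM. *Klb*, which encodes beta-Klotho, rose in whole Six2 kidneys, from 0.245 to 0.434 CPM in WT up to 3.11 to 3.57 CPM in T1 and 3.43 to 3.52 CPM in T3. Tubule markers fell beside *Kl*. All 6 proximal tubule markers and all 4 markers of the loop and distal tubule were called down in whole Six2 kidneys of both mutants and in sorted Six2 cells of E18.5. The proximal sum in whole Six2 kidneys was 2433 and 2663 CPM in WT, 391 to 482 CPM in T1 and 381 to 419 CPM in T3. In whole Foxd1 kidneys 5 of 6 proximal markers fell (2576 to 2710 CPM in WT, 1158 to 1503 CPM in T1), and in sorted Foxd1 cells 4 of 6 (111 to 292 CPM against 56.4 to 93.2 CPM). Their part in the fall of *Kl* was not tested.

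Of the other ligands, *Fgf1* fell in each comparison of the Six2 lineage, with 35.5 to 44.1 CPM in WT whole kidneys against 12.5 to 12.9 CPM in T1 and 13.2 to 13.7 CPM in T3, and 51.8 to 63.7 CPM against 13.5 to 15.3 CPM in sorted cells of E18.5. *Fgfbp1*, which releases FGFs from the matrix, fell in whole Six2 kidneys (5.64 to 6.30 CPM in WT, 1.94 to 1.98 CPM in T1) and in sorted cells of E18.5 (10.3 to 14.2 CPM against 1.93 to 2.11 CPM). *Fgf2* fell in the stroma, from 12.4 to 19.7 CPM down to 4.64 to 7.55 CPM, and in whole Foxd1 kidneys from 10.6 to 11.5 CPM down to 5.66 to 6.80 CPM.

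*Fgf3* and *Fgf14* were called on very low levels, at most 0.648 CPM in sorted T1 cells of E18.5 and at most 0.547 CPM in whole T1 Foxd1 kidneys. *Fgf18* rose at E14.5 from 1.197 to 1.91 CPM up to 2.77 to 4.48 CPM. *Fgf13*, an intracellular homologous factor that is not secreted, rose in sorted Six2 cells of E14.5 (2.85 to 4.07 CPM in WT, 9.91 to 11.1 CPM in T1) and in sorted Foxd1 cells (4.32 to 7.15 CPM against 15.3 to 16.8 CPM).

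*Sulf1*, a sulfatase that trims heparan sulfate, rose in sorted stroma from 11.5 to 28.4 CPM up to 53.2 to 81.2 CPM (1.66 ± 0.19, edgeR adjusted p = 8.28e-06). It was also called up in whole Six2 kidneys of both mutants, in sorted Six2 cells of E18.5 and in whole Foxd1 kidneys, with log2 fold changes between 0.64 and 1.13. *Flrt2*, a membrane partner of FGF receptors, rose at E14.5 from 31.0 to 32.7 CPM up to 60.0 to 73.9 CPM. *Etv1*, an ETS target of the pathway, fell there from 16.6 to 20.2 CPM down to 6.70 to 10.3 CPM (-1.07 ± 0.16, adjusted p = 0.00356), and at E18.5 as well (-0.68 ± 0.12). *Etv4* and *Etv5* were called in no genotype comparison. In whole Foxd1 kidneys all 3 ETS targets were higher in T1 at less than 1.5-fold. Log2 fold changes were 0.44 for *Etv1*, 0.36 for *Etv4* and 0.46 for *Etv5* (adjusted p of 0.000290, 0.00105 and 6.86e-05, edgeR). Of all genes tested in these kidneys, 33.4% had an adjusted p under 0.05 with no fold threshold.

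**Figure D5:**
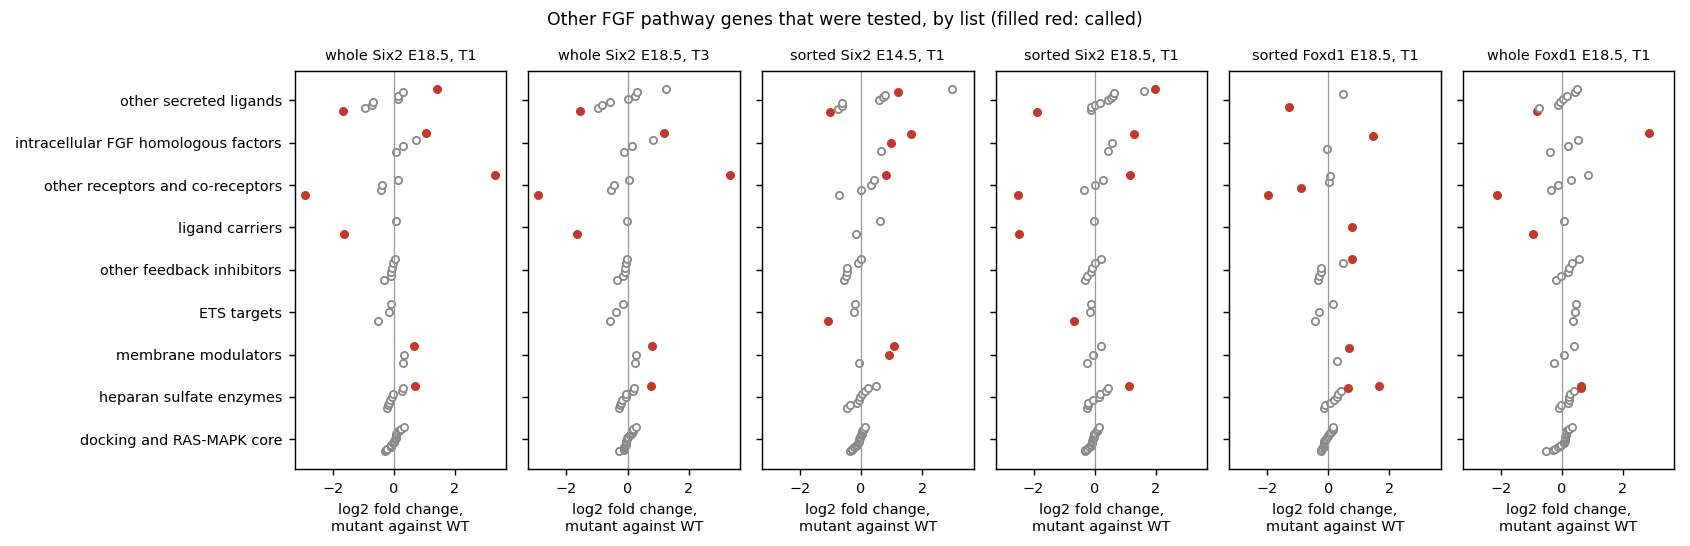
Fitted log2 fold change, mutant against WT, of the other FGF pathway genes that were tested, grouped by list (rows) in the 6 genotype comparisons (panels); each point is a gene and filled red points were called. *Klb* (up to 3.36) and *Kl* (down to -2.93) lie farthest out among called genes in both whole Six2 panels, *Fgf13* (1.64) does at E14.5 and *Fgf14* (2.86) in whole Foxd1 kidneys, and the docking and RAS-MAPK core stays near 0 with no called gene.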

How the data were processed

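Whole-kidney libraries were made with the KAPA Stranded mRNA kit and sorted-cell libraries with SMART-Seq v4. Per the study's methods and the labels, the authors mapped reads to mm10 with HISAT2 and counted them per Ensembl gene with HTSeq without strand. The deposited values are raw counts, 1 table for each of 4 sets of libraries. The members and gene lists were chosen with earlier results of these data known. Names came from GENCODE vM21.

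Counts were scaled by TMM, filtered with filterByExpr (minimum count 10, minimum total 15) and fitted with edgeR 4.0.16 (quasi-likelihood test, 2-sided, Benjamini-Hochberg over all genes tested) in R 4.3.3, a mean per group, with thresholds stated beside each comparison; the authors used edgeR's exact test. Printed CPM are TMM-scaled over all libraries of a table. The fits were tested on simulated data first. Sorted Foxd1 libraries held 2557443 to 3508381 counts and the others 67137194 to 157266455, so 3 low members could not be tested in the former. Alternatives were other scaling, no low-count filter, DESeq2 1.42.0, the exact test, other library sets, a replicate block and each library left out. Replicates of a group correlated at 0.987 to 0.995 over 33 pairs and 0 pairs were identical. Named genes were all members, *Mllt1* as a check, per genotype comparison up to 4 called pathway genes with the largest fold whose groups were apart, and the 3 genes most like each member. Dissociation genes, other called pathway genes and the scales per marker sum were chosen after their values were seen. No protein sequence was used here, and 1 marker list is not reported here.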

Additional observations from a re-analysis of the deposited data

Results flagged for a closer look

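The genotype effect on *Fgfr1* differed between stages in sorted Six2 cells, by 0.52 on the log2 scale (interaction, edgeR adjusted p = 0.000706), with T1 below WT at E14.5 and above it at E18.5. The genotype effect differed between the stromal and the nephron lineage for *Spry1*, by -0.60 (adjusted p = 0.000963), and for *Fgfr2*, by -0.34 (adjusted p = 0.0250, but 0.0706 without T1 replicate 3 of the sorted Six2 cells). The lineages also differed in read length and depth, which cannot be told apart from lineage.

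In sorted Foxd1 cells of T1, 1 of 4 libraries stood apart for *Fgfr1*, at 135.6 CPM where the others had 151.9 to 153.6 CPM, and the same was seen for *Dusp6*, at 66.0 CPM where the others had 78.5 to 79.3 CPM. Both values come from replicate 3. These were 2 of 22 groups of 4 libraries examined for a library far from the rest, and chance alone gives about 5% of groups.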

How the results depend on the processing

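Of 164 recomputed counts of called members 140 stayed within 1.5 times, and of 1592 recomputed log2 fold changes 1491 kept direction and side of the threshold. With no fold threshold the counts were 3 of 10 in whole Six2 T1, 4 in sorted Six2 cells at E14.5, 4 at E18.5, 1 in sorted Foxd1 cells, 4 in whole Foxd1 kidneys and 9 for development, where 14.2%, 12.9%, 20.3%, 10.7%, 33.4% and 64% of all genes were called. With no low-count filter they were 1 in sorted Foxd1 cells (*Fgf7*, 3.35% of all genes) and 4 for the stage interaction (6.03%), with library size only 2 for the stage interaction (8.52%), with DESeq2 3 for the stage and 4 for the lineage interaction (12.1% and 18%), and with 1.5-fold added 0 and 1 (5.15% and 11.4%).

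Leaving out 1 library gave 1 to 2 calls in whole Six2 T1, 2 to 3 in T3, 1 to 1 and 2 to 2 in sorted Six2 cells at E14.5 and E18.5, 0 to 1 in sorted Foxd1 cells, 1 to 2 in whole Foxd1 kidneys, 3 to 4 for development, 1 to 3 for each interaction and 7 to 8 between lineages. The lineage interaction of *Fgfr2* lost its call without T1 replicate 3 of the sorted Six2 cells (adjusted p = 0.0706) and with no low-count filter (adjusted p = 0.134).

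The log2 fold changes whose sign turned had not passed the test. In whole Six2 T1 *Dusp6* was 0.0023 with RLE size factors, 0.058 with library size only, 0.0024 with DESeq2, and 0.0032 both with the exact test and with only the 2 groups compared, and *Spry2* was 0.0145 with library size only. *Fgf9* in sorted Six2 cells of E18.5 was 0.0442 with library size only. In the stage interaction *Fgf8* was -0.029 with RLE size factors and with DESeq2, -0.0437 with no low-count filter and -0.0152 with the replicate block, and *Dusp6* was -6e-04 with no low-count filter. Leaving out 1 library turned the sign within these ranges: in whole Six2 T1 *Dusp6* -0.16 to 0.17 and *Fgf8* -0.0172 to 1.05, in T3 *Fgfr1* -0.0943 to 0.125, in sorted Six2 cells of E18.5 *Spry1* -0.0133 to 0.149 and *Fgf9* -0.225 to 0.0849, in sorted Foxd1 cells *Fgf10* -0.28 to 0.11, *Fgfr2* -0.069 to 0.011 and *Fgfr1* -0.0416 to 0.0097, in the stage interaction *Fgf8* -0.18 to 0.16 and *Dusp6* -0.0632 to 0.114, and in the lineage interaction *Fgf9* -0.40 to 0.15 and *Dusp6* -0.20 to 0.0259. Of these, *Fgf8* in whole Six2 T1 passed the test without WT replicate 2 (1.05, adjusted p = 0.0336). The cause was not tested.

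Same-numbered libraries showed no clear tendency to deviate together (correlations of -0.0791 to 0.139). With so few libraries per group, these correlations cannot exclude pairing by replicate number. With a replicate block the counts of called members were 1 and 3 in whole Six2 T1 and T3, 1 and 2 in sorted Six2 cells at E14.5 and E18.5, 0 in sorted Foxd1 cells, 1 in whole Foxd1 kidneys, 4 for development, 1 for the stage interaction and 3 for the lineage interaction, which added *Fgf10* (0.82, adjusted p = 0.0475). Depth limits the sorted Foxd1 cells, where *Fgf8*, *Fgf9* and *Fgf20* were too low to test.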
